A study of Arabidopsis thaliana with 16 samples.

Results

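On arrays of Arabidopsis thaliana, 8 nuclear genes for organelle RNA proteins were followed in white and in blue light, 7 of the pentatricopeptide repeat (PPR) family and 1 of the mTERF family, the family of the mitochondrial transcription termination factor. They are 8 of the 692 array features that the platform annotation pairs with exactly 1 gene, in a table of 3439 features. The members were chosen by their measured difference between blue and white light in these same data, together with their family. The differences below are therefore descriptions, and no p-value of a member is given. The gene table used for names lists each member by its locus only, so the family is the one by which the genes were chosen. Each member had 1 single-gene feature.

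PPR proteins are built from tandem helical repeats that bind single-stranded RNA in a sequence-specific way. They are encoded in the nucleus, are unusually numerous in land plants, and nearly all enter mitochondria or chloroplasts, where they take part in editing, splicing, processing, stabilising and translating organelle transcripts. Plant mTERF proteins also consist of helical repeats, enter the same organelles and act in organelle transcription and intron splicing. Blue light is perceived by plants through cryptochromes and phototropins, and light in general drives chloroplast development, in which organelle transcripts are made and processed under nuclear control. What each of the 8 genes does individually is not stated here, since the sources used give no role for them.

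The plants were wild type, of the ecotype Landsberg, and total RNA was taken after 48 hours in white light at 20 µE or after 48 hours in blue light at 20 µE, with 8 array columns for each light. The organ, the age of the plants and the light before those 48 hours are not stated in the labels, which also do not say whether the columns came from separate plants. No leaf, root, seed or flower marker from the lists used had a single-gene feature, so the tissue could not be checked. The deposited values are linear intensities. Columns of replicates 1 and 2, of 3 and 4, of 5 and 6, and of 7 and 8 were each most alike in all 16 cases, so these neighbours were averaged into samples 1 to 4 of each light and counted as n = 4, and a spread between these samples may be technical.

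The columns differed in overall brightness. The white light totals lay between 1044 and 3320 and the blue light totals between 3067 and 3735, and white light replicates 7 and 8 stood apart with totals of 1044 each. After quantile normalization the median difference between blue and white light over the 2864 features tested was 0.00 on the log2 scale, against 1.36 (log2) as deposited. A normalized difference is thus a difference from the bulk of the features. RNA per cell and the number of cells of a type cannot be told apart in such bulk samples.

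In blue light 5 of the 8 genes were at higher normalized levels (the PPR genes AT4G04370, AT2G46050, AT4G21170 and AT1G31790 and the mTERF gene AT1G79220), 2 PPR genes were lower (AT5G15280 and AT3G26630), and the PPR gene AT3G49740 was listed at 0 in every blue light column. The higher genes were between 1.94 and 4.42 times their white light level, and the lower genes had 2.84 and 1.97 times as much signal in white light as in blue. Over the 7 members that could be normalized, the median log2 difference was 1.28 and the median absolute difference 1.49, against 0.00 and 0.70 over all features tested. Since the members were chosen by this difference, a larger size than over all features follows from the choice, and nothing is read from it. All 7 had a signal above 0 in all 16 columns, while AT3G49740 could not pass a filter that asked for signal in at least 6 columns of each light.

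**Figure D1:**
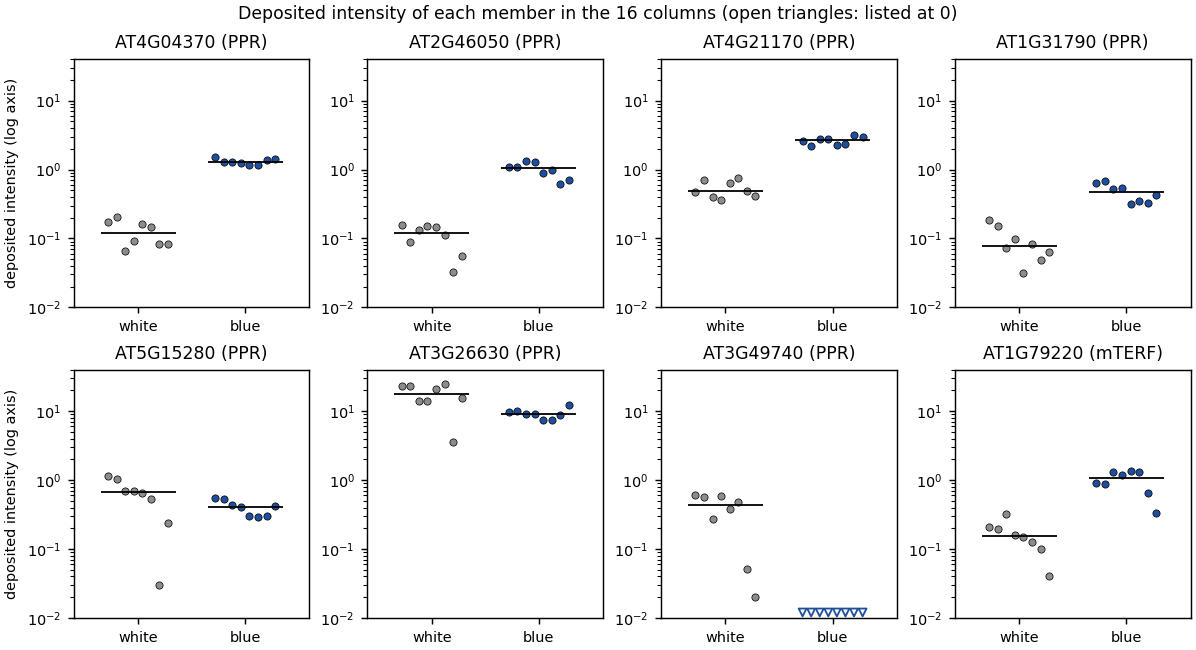
Deposited intensity (log axis) of the 8 genes in the 8 white light columns (grey) and 8 blue light columns (blue), in the order of the replicate numbers from left to right, with the median as a line and values listed at 0 as open triangles at the lower edge. The 8 blue light points of AT4G04370 sit between 1.15 and 1.51, above all white light points, while AT3G49740 has a signal in white light only.

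AT4G04370 had the largest difference of the higher members after quantile normalization. Its deposited intensity lay between 0.0665 and 0.202 in white light, with a median of 0.120, and between 1.15 and 1.51 in blue light, with a median of 1.29. The ranges were far apart, and the blue light columns lay close together. After normalization the white light samples 1 to 4 stood at -2.21, -2.98, -2.21 and -1.94 (log2 level) and the blue light samples at -0.23, -0.27, -0.54 and 0.28. The mean was -2.33 ± 0.45 (SD, n = 4) in white light and -0.19 ± 0.34 (SD, n = 4) in blue light, a difference of 2.14 (SE 0.28) on the log2 scale. Every blue light sample was above every white light sample, and the feature moved from the 28.5th percentile of the signals above 0 in its column (median over columns) to the 80.7th.

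AT2G46050 was also higher in every blue light sample. White light columns lay between 0.0325 and 0.156 in deposited intensity (median 0.121), and blue light columns between 0.619 and 1.32 (median 1.05). The lowest column of each light was replicate 7. The normalized white light samples were at -2.86, -2.03, -2.44 and -2.89 and the blue light samples at -0.70, -0.20, -0.88 and -0.90 (log2 levels). Sample 2 was the highest in both lights, and the groups did not overlap. Blue light was higher by 1.89 (SE 0.26, n = 4 per group) on the log2 scale.

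AT4G21170 was already well above most features in white light, at a median percentile of 76.1 in its column, and reached the 95.1st in blue light. The deposited intensity was 0.356 to 0.755 in white light (median 0.483) and 2.17 to 3.17 in blue light (median 2.65). The normalized samples 1 to 4 were at -0.78, -0.75, -0.37 and 0.34 in white light and at 0.89, 1.23, 0.81 and 1.45 in blue light (log2 levels). Sample 4 was the highest in both lights, and the groups did not overlap. The log2 difference was 1.49 (SE 0.30, n = 4 per group).

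AT1G31790 had a dim feature, with a mean level at the 20.1st percentile of all features tested. As deposited, it was at 0.0320 to 0.183 in white light (median 0.0780) and at 0.315 to 0.680 in blue light (median 0.475). That white light median was below 0.0874, the 10th percentile of the deposited signals above 0 of the tested features. The difference is thus measured from values near the low end of the signals. The normalized white light samples were at -2.38, -2.83, -3.66 and -2.53 and the blue light samples at -1.60, -1.70, -2.44 and -1.86 (log2 levels). Blue light sample 3 lay below white light sample 1, so the groups overlapped, yet sample 3 was the lowest and sample 1 the highest in both lights. White light sample 3 averages replicates 5 and 6, which stood at -4.29 and -3.04. That gap of 1.25 was larger than for 93.2% of the tested features, and replicate 5 was the column at 0.0320. The log2 difference was 0.95 (SE 0.34, n = 4 per group), and within the 4 number pairs blue light was higher by 0.67 to 1.23.

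AT5G15280 was lower in blue light, with 1 white light sample set apart. In deposited intensity the white light columns spanned 0.0300 to 1.14 (median 0.672) and the blue light columns 0.296 to 0.552 (median 0.413), and these ranges overlapped. The normalized white light samples were at -0.05, 0.06, -0.57 and -1.84 and the blue light samples at -1.91, -2.03, -2.57 and -1.92 (log2 levels). White light sample 4 stood barely above the highest blue light sample. That sample averages white light replicate 7 at -3.30, below every blue light column (lowest -2.60), and replicate 8 at -0.38. The lack of overlap between the averaged samples thus rests on this averaging. The mean was -0.60 ± 0.87 (SD, n = 4) in white light and -2.11 ± 0.32 in blue light, so that blue light was lower by a log2 difference of -1.51 (SE 0.46). Within the number pairs the difference ran from -2.09 to -0.08, the last in pair 4, and it was -1.92 without white light sample 4 and -1.87 without white light replicate 7 alone.

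AT3G26630 was among the brightest features of every column, from the 98.4th percentile upward in blue light and from the 98.7th in white light. The deposited intensity spanned 3.52 to 24.9 in white light (median 18.0) and 7.36 to 12.2 in blue light (median 9.16). White light replicate 7 was the lowest of all 16 columns at 3.52, whereas its neighbour, replicate 8, was at 15.4 with nearly the same total signal. The normalized samples were at 3.92, 3.92, 3.82 and 4.12 in white light and at 2.95, 2.98, 2.82 and 3.14 in blue light (log2 levels). The groups did not overlap, and the log2 difference was -0.98 (SE 0.09, n = 4 per group), with -1.01 to -0.95 within the number pairs. White light replicates 7 and 8 were at 3.01 and 5.22 before they were averaged to 4.12, on opposite sides of replicates 1 to 6 (3.68 to 3.97). The small SE and the narrow range of pair differences thus rest partly on 2 deviations that cancelled. Without replicate 7 the difference was -1.25, with the high replicate 8 kept, and without white light sample 4 it was -0.92. Replicate 8 alone was not left out.

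AT3G49740 was listed at 0 in all 8 blue light columns. Its intensity in white light replicates 1 to 8 was 0.598, 0.570, 0.269, 0.585, 0.384, 0.480, 0.0508 and 0.0201. The first 6 stood between the 59.4th and the 83.3rd percentile of the signals above 0 in their columns, while replicates 7 and 8 stood at the 21.2nd and the 7.25th. No other single-gene feature had a signal in every white light column and 0 in every blue light column. Among all 3439 features 2 had this pattern and 8 had the reverse one. Since 0 in this table may stand for a spot that could not be read, blue light was not expressed as a fold of white light.

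AT1G79220, the mTERF gene, was higher in blue light with a wide spread. As deposited, white light columns lay between 0.0405 and 0.326 (median 0.155) and blue light columns between 0.334 and 1.33 (median 1.06), so the 2 ranges nearly touched. The normalized white light samples were at -2.11, -1.42, -2.35 and -2.32 and the blue light samples at -1.07, -0.27, -0.29 and -1.46 (log2 levels). Blue light sample 4 lay just below white light sample 2, so the groups overlapped by a small margin. The log2 difference was 1.28 (SE 0.37, n = 4 per group), and within the number pairs it ran from 0.86 to 2.06.

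**Figure D2:**
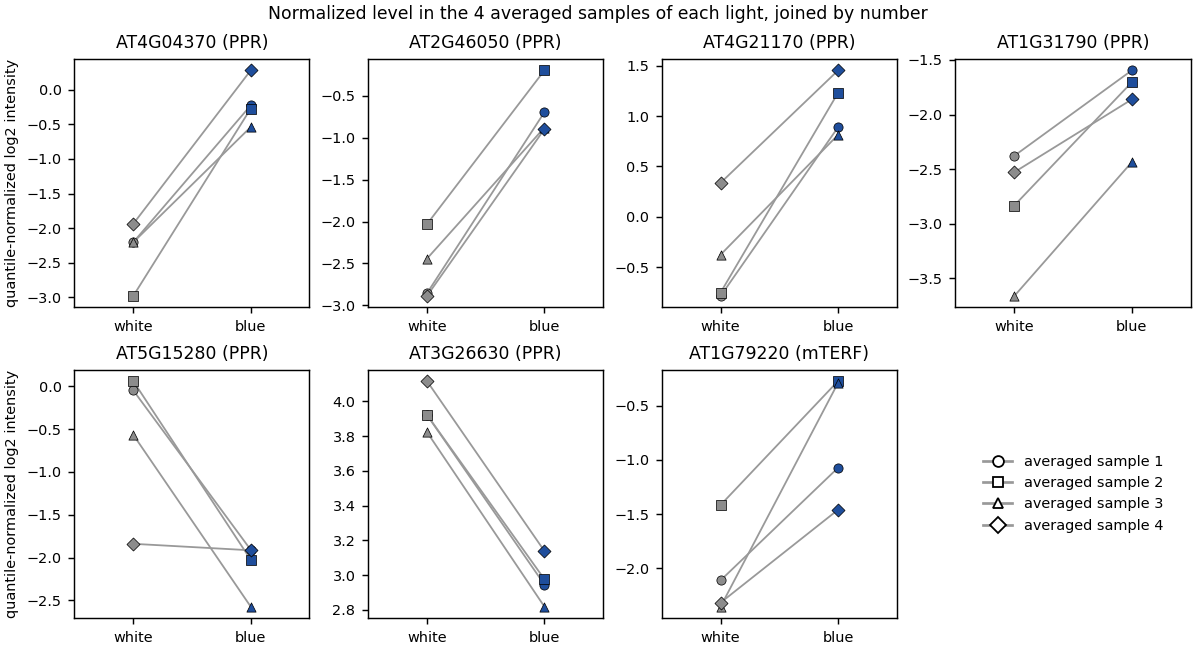
Quantile-normalized log2 intensity of the 7 members with signal in both lights, in the 4 averaged samples of white light (left in each panel) and blue light (right), with lines joining samples of the same number; each panel has its own vertical scale. All lines go up in the 5 members with the higher blue light mean and all go down in AT5G15280 and AT3G26630, where the line of sample 4 of AT5G15280 is nearly flat (-0.08).

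The share of members that differed was set beside the rest of the array only as background, because the members were chosen on this contrast. In limma with Benjamini-Hochberg adjustment over all 2864 tested features, 32.4% of the features passed an adjusted p of 0.05, 15.9% as higher and 16.4% as lower in blue light. Of the 7 members in that fit, 4 passed as higher and 2 as lower. With the number pairs as a block, where 41.7% of all features passed, 5 passed as higher and 2 as lower. The averaged samples of the groups did not overlap for 5 of the 7 members, against 33.3% of all tested features. In the deposited intensities 5 of the 7 did not overlap between the 8 white and 8 blue light columns, against 38.4% of the tested features. Nothing is read from these counts.

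The size of each difference depended on how the columns were scaled, and its sign did not under the 20 alternatives run. As deposited, the log2 difference of AT4G04370 was 3.47, that of AT2G46050 was 3.32 and that of AT4G21170 was 2.35. The mTERF gene AT1G79220 stood at 2.69 as deposited and AT1G31790 at 2.51. The lower genes moved toward 0 as deposited, AT5G15280 to -0.16 and AT3G26630 to -0.74. With columns scaled to total signal the log2 difference was 1.81 for AT1G31790, 1.99 for AT1G79220 and -0.86 for AT5G15280. Median centring changed the bright members most, giving a log2 difference of 0.87 for AT4G21170 and -2.23 for AT3G26630. Cyclic loess gave values close to those of quantile normalization for all 7, from -1.67 for AT5G15280 to 1.94 for AT4G04370. The added pseudocount lowered the log2 difference of AT1G31790 from 0.95 to 0.57, of AT2G46050 from 1.89 to 1.40 and of AT4G04370 from 2.14 to 1.69.

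**Figure D3:**
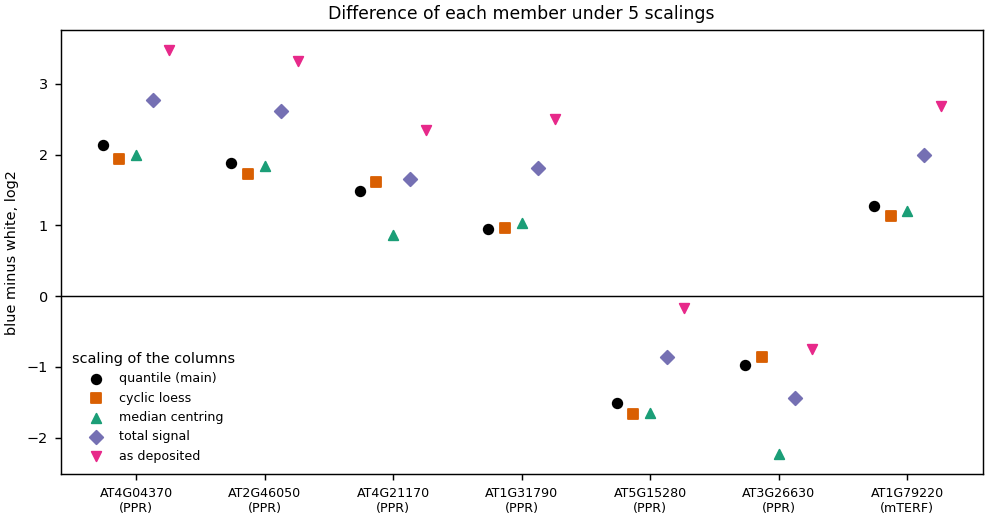
Blue minus white log2 difference of the means of the 4 averaged samples for 7 members under 5 scalings of the columns (symbols). No symbol crosses 0, and the deposited values (pointing down) lie above the quantile-normalized ones for every member, with AT5G15280 closest to 0 at -0.16.

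A ratio of 2 features on the same array cancels a brightness that multiplies all signals of that array, but not a difference between arrays that depends on signal level. The members were chosen for their direction, so the sign of a ratio between a higher and a lower member is fixed by that choice, and only its size is described. Relative to AT3G26630, the deposited log2 signal of AT4G04370 shifted by 4.22 from white to blue light, against 3.12 after quantile normalization and 2.81 after cyclic loess. For AT1G31790 the log2 ratio to AT3G26630 shifted by 3.26 as deposited, by 1.93 after quantile normalization and by 1.83 after cyclic loess. The shift of AT5G15280 relative to AT3G26630, both lower in blue light, was 0.58 as deposited, -0.53 after quantile normalization and -0.80 after cyclic loess. AT3G26630 thus had the larger difference as deposited, and AT5G15280 had it after quantile normalization and cyclic loess. Median centring and scaling to total signal, which shift all log2 signals of a column alike, also left AT3G26630 with the larger difference. The log2 differences of AT3G26630 and AT5G15280 were -2.23 and -1.65 with median centring, and -1.44 and -0.86 when scaled to total signal.

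How closely neighbouring columns of the same light matched differed among the members. The SD between neighbouring columns was 0.17 (log2) for AT4G04370 and also for AT4G21170, against a median of 0.26 over all tested features. It was 0.28 for AT2G46050, 0.37 for AT1G31790, 0.49 for AT1G79220, 0.57 for AT3G26630 and 0.74 for AT5G15280. In the last 2 genes nearly all of it came from white light replicates 7 and 8. These differed by 2.91 (log2) for AT5G15280, more than for 98.4% of the tested features, and by 2.21 for AT3G26630, more than for 96.6%. Leaving that sample out brought the SD between neighbours to 0.16 for AT5G15280 and 0.13 for AT3G26630, against a median of 0.21 over all tested features. In both genes replicate 7 was the lower of the pair. For AT3G26630 replicate 7 (3.01) lay below white light replicates 1 to 6 (3.68 to 3.97, log2 level), and replicate 8 (5.22) lay above them. AT1G79220 kept an SD of 0.38 without that sample, with a gap of 1.03 between blue light replicates 7 and 8 and of 0.92 between white light replicates 3 and 4. What set replicate 7 apart for AT5G15280, and replicates 7 and 8 for AT3G26630, was not tested.

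**Figure D4:**
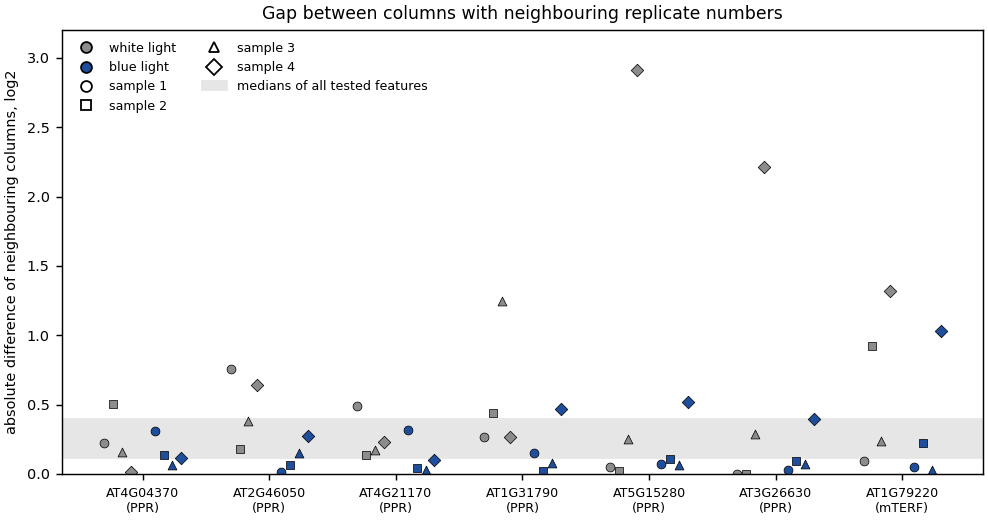
Absolute log2 difference between columns of neighbouring replicate numbers for 7 members, in white light (grey) and blue light (blue), with a symbol for each averaged sample; the grey band spans the medians of all tested features, from 0.11 to 0.39. White light sample 4 gives the 2 highest points, 2.91 for AT5G15280 and 2.21 for AT3G26630.

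The deviations of the members within a light were compared next. After the mean of each light was taken off, the correlation between 2 members over the 8 averaged samples ran from -0.87 (AT4G04370 with AT1G79220) to 0.77 (AT4G21170 with AT3G26630), with a median of -0.09 over the 21 member pairs. Among all pairs of features measured in every sample the quartiles of the correlation were -0.37 and 0.38. These are descriptions over few points that share arrays and numbers, and no test is given.

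For each member the single-gene feature with the most similar deviations over the 16 columns was sought among 484 features with signal in all columns. It was XERICO (AT2G04240), a RING-type zinc finger gene linked to abscisic acid, for AT4G04370 (Pearson r = 0.79), AT4G33500 for AT2G46050 (0.80), AT4G00170 for AT4G21170 (0.88) and AT4G03090 for AT1G31790 (0.79). The most similar gene was AT1G51110 for AT5G15280 (0.90), AT4G38020 for AT3G26630 (0.91) and AT2G37580 for AT1G79220 (0.88). Without white light replicates 7 and 8 the value for AT3G26630 dropped to 0.55, and the others lay between 0.74 and 0.86. Neighbouring columns are not independent, and the highest of 484 values is high by construction.

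The array offered 1 further gene of these families that could be found by name, mTERF9 (AT5G55580), a plastid mTERF protein. The deposited intensity was 0.0192 to 0.635 in white light (median 0.356) and 0.621 to 1.18 in blue light (median 0.865). The normalized samples were at -0.97, -0.69, -2.21 and -2.91 in white light and at -1.21, -0.96, -0.55 and -1.01 in blue light (log2 levels). White light samples 1 and 2 thus lay within the blue light range, while samples 3 and 4 lay below it as averages. White light sample 3 averages replicate 5 at -3.79 and replicate 6 at -0.64, of which replicate 6 lay within the blue light range. White light sample 4 averages replicates 7 and 8, at -3.94 and -1.88. The log2 difference was 0.76 (SE 0.47, limma adjusted p = 0.234) and did not pass, and without white light sample 4 it was 0.36. It passed as deposited (2.16, limma adjusted p = 0.0256) and with columns scaled to total signal (1.46, limma adjusted p = 0.0343), and over the alternatives run the adjusted p ran from 0.0256 to 0.494. Whether mTERF9 and AT1G79220 differ in their response was not tested. No further PPR gene, no tetratricopeptide repeat gene, no organelle-encoded gene and no gene of the list of other organelle RNA factors (sigma factors, organelle RNA polymerases, editing factors, splicing factors, ribonucleases) was found among the single-gene features by name or locus, so the possible targets of the members were not analysed here.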

How the data were processed

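The deposited table holds linear intensities for 3439 features in 16 columns. How the authors corrected, scaled or filtered these deposited intensities is not given in the sources used, and 11.7% to 16.7% of the entries of a column were 0. Features were named through the platform annotation (692 with 1 gene, 870 with several, 1877 with none), with 690 matched to the TAIR10.1 gene table by gene ID. Coordinates were left out, since the annotation names no build.

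Entries of 0 were treated as missing, the 2864 features above 0 in at least 6 of 8 columns of each light were kept, log2 values were quantile-normalized over the 16 columns, and neighbouring replicate numbers were averaged. Blue and white light were compared with limma 3.58.1 under R 4.3.3 (a linear model with eBayes moderation, two-sided, Benjamini-Hochberg over all tested features, threshold 0.05), tested beforehand on simulated data. SEs of members come from the SDs of the averaged samples, the SE of mTERF9 from the limma fit. Same-numbered averaged samples of the 2 lights deviated together (correlations of 0.38, 0.45, 0.18 and 0.34 across features). Samples of unlike number had correlations of -0.25 to 0.10. The labels do not say what the numbers share, and the fit with the number as a block was an alternative. The main fit and the SEs of members leave this pairing out. The averaging, the members, the gene lists and the tests were chosen with earlier results of these data known.

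The genes named were the 8 members, every other single-gene feature of the family lists and, for each member, the gene most like it. Lists were matched by words in the gene table's names, which miss genes that carry a locus only. Alternatives covered the normalization, low values, the filter, 16 separate columns, the replicate block, each averaged sample left out, replicates 7 and 8 of both lights left out and the variance model. White light replicate 7 left out was added after the data were seen. Precision is limited by the small number of arrays.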

Additional observations from a re-analysis of the deposited data

Results flagged for a closer look

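AT3G49740 had a sample far from the others in white light. Its deposited level, which could not be normalized because the gene was listed at 0 throughout blue light, was -4.97 (log2) in averaged sample 4, against -0.78, -1.33 and -1.22 in samples 1 to 3. White light sample 4 is the mean of replicates 7 and 8, the columns with the lowest total signal, and the gene was also low there relative to its column, at the 21.2nd and the 7.25th percentile of the signals above 0. Of the 17 groups of 4 averaged samples examined this was the only one with such a sample, and chance gives about 5% of groups. This group was examined as deposited and the others after normalization, so they were not compared on the same scale. As deposited, AT2G46050 in white light also had a low sample 4, at -4.55 (log2) against -3.08, -2.82 and -2.97 in samples 1 to 3.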

How the results depend on the processing

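Over 20 alternatives, 5 of 7 members had the higher mean in blue light and each member kept the sign of its difference. Features called higher and lower (456 and 471) stayed within 1.5 times under 18 of 21 alternatives each. They were 1530 and 44 as deposited, where 97.2% of the calls were higher, 1074 and 213 with columns scaled to total signal (83.4% higher), and 734 and 749 with 16 separate columns. Leaving out an averaged sample gave 317 to 499 higher and 329 to 491 lower. The replicate block, which pairs the samples by number, gave 596 higher and 599 lower. Of the 1 other gene of the families that could be found by name, 1 passed as deposited and 1 when scaled to total signal, and 0 under the other 19 alternatives. The cause of these changes was not tested. With each averaged sample left out in turn the log2 difference of AT5G15280 ran from -1.92 to -1.29 and that of AT1G31790 from 0.68 to 1.13. The meaning of 0 in the table is not defined, which limits AT3G49740.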
